A study of Mus musculus with 9 samples.

Results

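Cathepsins and the enzymes that work beside them in lysosomes were followed across 3 groups of mouse splenic dendritic cells (DCs). The genes were the rows of the deposited expression table named Ctss, Ctsb, Ctsc, Ctsd, Ctsh, Ctsl, Ctsz, Lgmn, Ifi30 and Cst3. These are 10 genes of the 54532 listed. Levels are FPKM, the reads per kilobase of gene scaled to the size of the library. Genes were tested when 3 or more of the 9 samples reached an FPKM of 1, which 12746 genes and all 10 members did.

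A DC takes up protein, cuts it in endosomes and lysosomes, and loads the peptides on MHC class II (MHCII) molecules for CD4+ T cells. Cathepsins are the proteases that do most of the cutting, and several of them also trim the invariant chain (Cd74) that blocks the MHCII groove until peptide is available. The endopeptidases Ctss, Ctsl, Ctsb, Ctsd and Lgmn cut inside a chain. The exopeptidases Ctsh, Ctsc and Ctsz remove residues from an end, Ifi30 (GILT) reduces disulfide bonds so that a protein can be unfolded and cut, and Cst3 (cystatin C) inhibits cysteine cathepsins.

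N-mDCs were mature conventional DCs (cDCs) sorted from spleens of healthy mice. T-mDCs were the mature cDCs of mice with T-ALL, and T-DCs were the CD11c+MHCIIlo cells of mice with T-ALL. Female mice aged 6 to 8 weeks on C57BL/6J or C57B6.SJL backgrounds were used in the study, and the cells of leukemic mice were sorted on day 15 of the disease model. The leukemia came from GFP+ cells transformed by a retrovirus that carries the intracellular domain of Notch1 (ICN1), and the recipients were not irradiated, so they kept their own blood cells. Each group had 3 samples. Nothing in the labels says that the 3 came from separate mice or whether mice were pooled, so p-values measure the spread between samples, which may be technical. T-DCs were gated on low surface MHCII, so MHCII was part of how the group was defined.

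Between 15360815 and 18440913 reads per library fell on genes, and each read of a gene 1 kilobase long added 0.0517 to 0.0659 FPKM. T-mDC samples 2 and 3 were close to each other, with a chi-square per gene of 1.85 over genes with 20 to under 200 reads, against 8.11 to 36.1 for the other pairs within a group. They differed by more than counting noise and were kept as separate samples. Hemoglobin took 3.82% and 3.0% of the reads of T-DC samples 2 and 3, and at most 0.405% in the other 7 libraries. The summed level of 3 DC markers (Flt3, Zbtb46 and Itgax) was 215 to 325 FPKM in N-mDCs, 232 to 280 in T-mDCs and 50.9 to 169 in T-DCs, and 2 of the 3 were differentially expressed at lower levels in T-DCs in each comparison. The gate used CD11c protein, which Itgax encodes, and Itgax mRNA was present in every T-DC sample, at 43.0 to 152 FPKM. These values were below all N-mDC samples (158.4 to 230.2) and all T-mDC samples (158.5 to 167.3). Itgax was not differentially expressed (limma adjusted p = 0.0926 and 0.149). The sum of 11 macrophage markers overlapped between T-DCs, at 1411 to 5377 FPKM, and N-mDCs, at 2425 to 5104.

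The 10 genes did not share a direction. T-DCs expressed lower levels of Ctsh than N-mDCs and lower levels of Ctsh and Ifi30 than T-mDCs, and no member was differentially expressed between T-mDCs and N-mDCs. A gene was called differentially expressed at a limma adjusted p under 0.05, with p-values adjusted over all 12746 genes. In T-DCs against N-mDCs 1 of 10 members was called, where 16.4% of all tested genes were. In T-DCs against T-mDCs 2 of 10 were called, where 14.2% of all tested genes were. T-mDCs against N-mDCs gave 0 of 10, with 2.21% of all genes called, and 2 of the 10 had an unadjusted p under 0.05, while voom on the recovered reads also called 0. The median log2 difference of the members was -0.56, 0.21 and -0.51 in the 3 comparisons in that order, beside 0.05, 0.07 and 0.03 over all tested genes. The comparisons share samples and are not independent of each other.

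**Figure D1:**
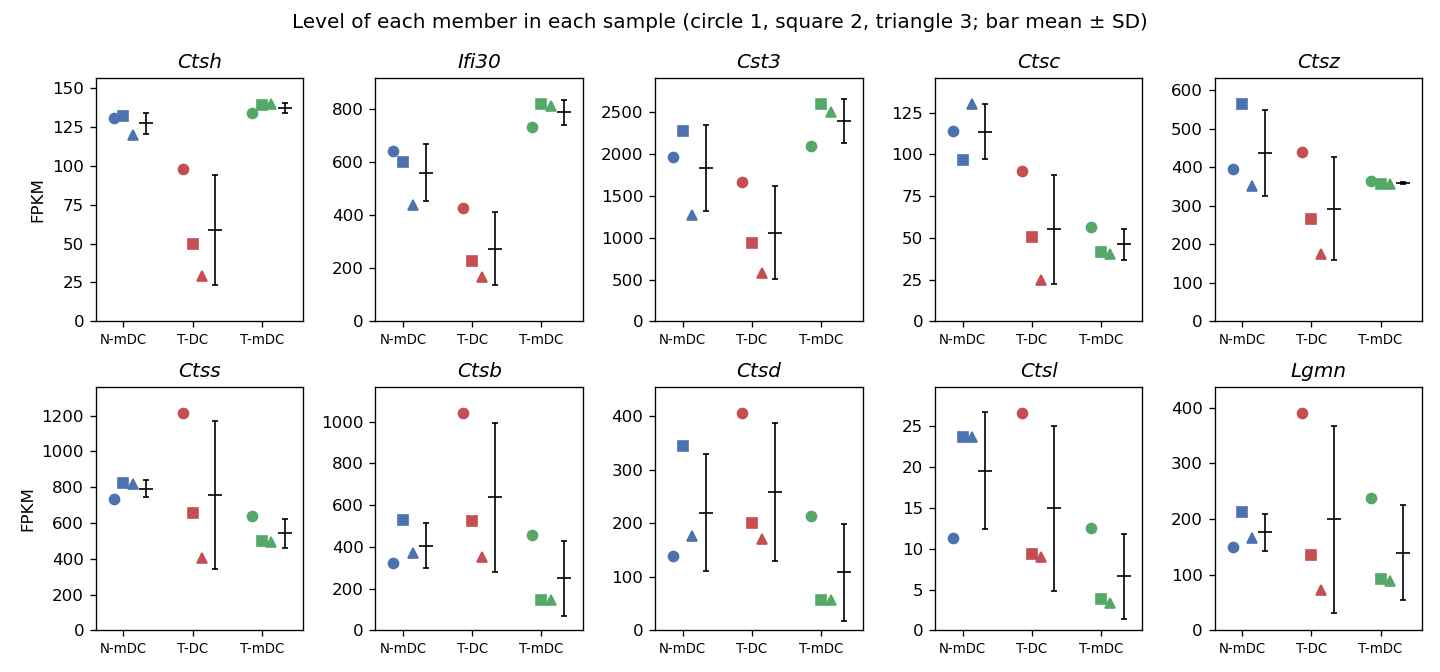
FPKM of each of the 10 genes (vertical axes, each starting at 0) in the 3 samples of each group (circle sample 1, square sample 2, triangle sample 3), with the mean and SD beside the points. T-DC sample 1 is the highest T-DC sample and sample 3 the lowest for every gene, and the T-DC points of Ctsh and Ifi30 lie below all points of the other 2 groups.

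By level, Cst3 led in every group and Ctsl was last in every group. FPKM divides by gene length, so levels can be set side by side between genes. In N-mDCs the mean FPKM was 1837 for Cst3, 792 for Ctss, 562 for Ifi30, 437 for Ctsz, 406 for Ctsb, 220 for Ctsd, 176 for Lgmn, 127 for Ctsh, 114 for Ctsc and 19.6 for Ctsl (n = 3). The samples of Ifi30 overlapped those of Ctsz, those of Ctsz overlapped Ctsb, those of Ctsb overlapped Ctsd, those of Ctsd overlapped Lgmn, and those of Ctsh overlapped Ctsc, so the order within those pairs is not settled by these samples. In T-mDCs the second place belonged to Ifi30, at a mean of 789 FPKM against 542 for Ctss, and the samples of these genes did not overlap. In T-DCs every neighbour in the order overlapped the next, since the 3 samples spread widely. The table divides by the length of all exons of a gene, and for Ctsh this is 4499 bases against 1617 in its principal transcript of GENCODE M21. Divided by the principal transcript, the N-mDC mean of Ctsh would be 354 FPKM and that of Ctsc 265, so their place in the order depends on the length used, while differences between groups do not.

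Ctss (chr3:95526786-95556403 in mm10, plus strand) is the endopeptidase that makes the last cuts in the invariant chain in DCs. N-mDC samples 1 to 3 held 736, 821 and 819 FPKM of Ctss, T-DC samples 1212, 653 and 404, and T-mDC samples 638, 498 and 491. The T-DC samples therefore spanned the samples of both other groups, and every T-mDC sample was below every N-mDC sample. The log2 difference was -0.21 (SE 0.36) in T-DCs against N-mDCs, 0.35 (SE 0.36) against T-mDCs and -0.56 (SE 0.36) in T-mDCs against N-mDCs, with limma adjusted p of 0.713, 0.549 and 0.475. Ctss was thus not resolved from 0 in any comparison, with a 95% interval of -1.03 to 0.61 on the log2 scale in T-DCs against N-mDCs.

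Ctsb (chr14:63122462-63145923, plus strand) can act as endopeptidase and as carboxypeptidase. It stood at 321, 527 and 371 FPKM in N-mDCs, 1039, 521 and 350 in T-DCs and 458, 146 and 146 in T-mDCs. Ctsd (chr7:142375911-142388038, minus strand), the aspartic endopeptidase of the lysosome, stood at 139, 344 and 177 FPKM in N-mDCs, 406, 200 and 170 in T-DCs and 213, 56.7 and 55.9 in T-mDCs. For both genes T-DC sample 1 was the highest of all 9 samples, and T-mDC samples 2 and 3 were the lowest. The log2 difference between T-DCs and T-mDCs was 1.42 (SE 0.53, limma adjusted p = 0.109) for Ctsb and 1.44 (SE 0.59, limma adjusted p = 0.14) for Ctsd, and neither passed the threshold. T-mDC sample 1 was 3.13 times the mean of T-mDC samples 2 and 3 for Ctsb and 3.78 times for Ctsd. The T-DC samples spread too, by 2.97-fold for Ctsb and 2.39-fold for Ctsd. Without T-mDC sample 1 the differences were 1.97 and 2.07 on the log2 scale, with limma adjusted p of 0.0253 and 0.026. That fit keeps only T-mDC samples 2 and 3 of their group, the pair that lay close to each other. Of 23 alternative settings, 2 called Ctsb and 2 called Ctsd. The adjusted p ran from 1.01e-05 to 0.479 for Ctsb and from 3.38e-05 to 0.627 for Ctsd. Against N-mDCs the log2 difference was 0.53 (SE 0.53) for Ctsb and 0.24 (SE 0.59) for Ctsd, within the spread of the samples.

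Ctsl (chr13:64359337-64370890, minus strand) is a cysteine endopeptidase known for cutting the invariant chain in thymic epithelium more than in DCs. It was the least abundant member, at 11.3, 23.7 and 23.7 FPKM in N-mDCs, 26.6, 9.36 and 8.93 in T-DCs, and 12.6, 3.86 and 3.38 in T-mDCs. The largest log2 difference was -1.56 (SE 0.55) in T-mDCs against N-mDCs, which did not pass (adjusted p = 0.199, limma). Lgmn (chr12:102394084-102439813, minus strand), the asparaginyl endopeptidase that cuts after asparagine and activates other cathepsins, stood at 150, 213 and 166 FPKM in N-mDCs, 390, 135 and 73.3 in T-DCs, and 238, 91.9 and 89.6 in T-mDCs. Its T-DC samples differed by 5.32-fold, the widest spread of any member in any group. Its 3 log2 differences lay between -0.47 and 0.33, with limma adjusted p from 0.734 to 0.886, and their SE of 0.60 left a 95% interval of -1.50 to 1.21 in T-DCs against N-mDCs.

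Macrophage markers shared part of the sample pattern of these endopeptidases. The summed level of Adgre1, Csf1r, C1qa, C1qb, C1qc, Mertk, Vcam1, Spic, Cd68, Marco and Apoe was 2425, 5104 and 2822 FPKM for N-mDC samples 1 to 3, 5377, 1972 and 1411 for T-DCs, and 2292, 732 and 724 for T-mDCs. T-DC sample 1 was again the highest and T-mDC samples 2 and 3 the lowest. T-DC samples 2 and 3 were below all N-mDC samples for the marker sum, Ctsl and Lgmn, but within the N-mDC range for Ctsb and Ctsd. None of the 11 was called in any comparison by limma, though 9 of the 11 had an unadjusted p under 0.05 in T-mDCs against N-mDCs, 4 in T-DCs against T-mDCs and 0 in T-DCs against N-mDCs. Their part in the levels of the endopeptidases was not tested. The tested genes whose log2 levels over the 9 samples were most like Ctsd were Apoe (Pearson r = 0.985) and Serpinb6a (r = 0.981), and those most like Ctsb were Serpinb6a (r = 0.993) and Aldh3b1 (r = 0.981). For Lgmn they were Sirpa (r = 0.987) and Lmbrd1 (r = 0.975), for Ctsl Mr1 (r = 0.987) and Itgb5 (r = 0.982), and for Ctss Rnf130 (r = 0.983) and Sik1 (r = 0.977). These are the closest of 12736 genes, over 9 points that share their libraries, and are given as a description.

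**Figure D2:**
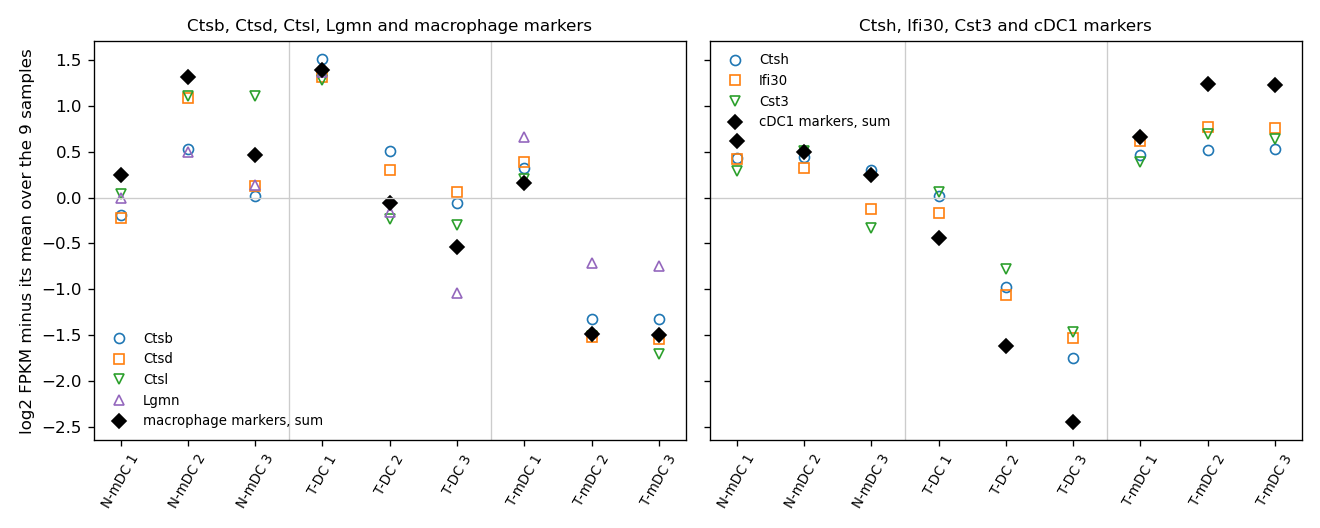
Log2 FPKM of members and the log2 summed FPKM of marker lists in each of the 9 samples, each minus its own mean over the samples (vertical axis), with Ctsb, Ctsd, Ctsl, Lgmn and the macrophage markers on the left and Ctsh, Ifi30, Cst3 and the cDC1 markers on the right. On the left T-DC sample 1 is high and T-mDC samples 2 and 3 are low, while on the right T-DC samples 2 and 3 are the lowest of the 9.

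Start sites were searched for letters of transcription factor motifs. RefSeq windows of 300 bases (250 before to 50 after a RefSeq start, GRCm38.p6) were held for 8 of the 10 members, all but Ctsb and Ctsh. A RefSeq start can lie inside the gene as the expression table draws it. The searches covered both strands and 32851 windows of all genes. Members are counted by gene, with a match in any window, while the shares of all genes are by single window. The 8 members had 9 windows, as Lgmn had 2. CACGTG, the E-box core bound by TFEB and its relatives, which drive lysosomal genes, occurred in 4 of the 8 members and in 7.15% of all windows. GAAANNGAAA, a repeat bound by interferon regulatory factors, occurred in 1 of the 8 and in 3.44% of all windows. GGAAGT, the core bound by PU.1 and other ETS factors, occurred in 2 of the 8 (Ctss and Ctsc) and in 23.8% of all windows. TATAAA occurred in 2 of the 8 (Ctss and Lgmn) and in 13.6% of all windows. The 5 E-boxes are shown because this is the motif found in the most members. Ctss, Ctsc, Ctsz and Cst3 held none, and Ctsb and Ctsh had no window. Each E-box is printed on the minus strand, the strand of its gene, with the core in capitals.
Ctsd, E-box 98 bases before the RefSeq start and 113 bases inside the gene of the table, chr7:142387908-142387937: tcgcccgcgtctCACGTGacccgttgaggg
Ctsd, E-box 245 bases before the RefSeq start and 34 bases before the gene of the table, chr7:142388055-142388077: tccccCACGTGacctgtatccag
Ctsl, E-box 236 bases before the RefSeq start and 134 bases inside the gene of the table, chr13:64370739-64370768: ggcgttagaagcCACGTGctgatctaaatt
Lgmn, E-box 49 bases before the RefSeq start of 1 of its 2 windows and 672 bases inside the gene of the table, chr12:102439124-102439153: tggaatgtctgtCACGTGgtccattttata
Ifi30, E-box 196 bases before the start, which is the same in both sources, chr8:70766842-70766871: atccaaaaacttCACGTGaccagacatgct
The other Lgmn window, which spans the gene start of the table, held 0 matches to the E-box. The interferon regulatory factor repeat belonged to Ctss, whose start is the same in both sources. The 100 bases before the Ctss start are shown on the plus strand, with the repeat, which begins 21 bases before the start, in capitals.
Ctss, chr3:95526686-95526785: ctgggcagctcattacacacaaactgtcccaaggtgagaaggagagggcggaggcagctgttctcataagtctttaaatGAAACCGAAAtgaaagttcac
These matches describe the letters in the windows only. Tfeb itself stood at 28.8, 34.0 and 24.1 FPKM in N-mDCs, 26.0, 15.1 and 9.03 in T-DCs, and 20.8, 24.2 and 23.5 in T-mDCs. None of the 4 regulators of the family (Tfeb, Tfe3, Mitf and Tfec) was called by limma in any comparison, and 1 of the 4 had an unadjusted p under 0.05, in T-DCs against N-mDCs.

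Among the exopeptidases, Ctsh separated the groups most clearly. Ctsh (chr9:90054152-90076089, plus strand) is an aminopeptidase that trims from the amino end. Its level was 131, 132 and 120 FPKM in N-mDCs, 97.8, 49.4 and 28.9 in T-DCs, and 134, 139 and 140 in T-mDCs. All 3 T-DC samples were below all 6 samples of the mature cDCs. On the log2(FPKM + 1) scale Ctsh was lower in T-DCs by 2.42-fold than in N-mDCs (log2 -1.28, SE 0.37, limma adjusted p = 0.0481) and by 2.61-fold than in T-mDCs (log2 -1.38, SE 0.37, limma adjusted p = 0.0398). Both calls were near the threshold and depended on many samples. The call against N-mDCs was lost when any 1 sample other than T-DC sample 1 was left out, including a T-mDC sample. The call against T-mDCs was lost without T-DC sample 2, T-mDC sample 2 or T-mDC sample 3, among others. With T-DC sample 1 alone, without the libraries with the hemoglobin reads, the log2 differences were -0.38 and -0.49. Over 23 alternative settings the call held in 8 against N-mDCs (adjusted p from 1.53e-05 to 0.374) and in 9 against T-mDCs (1.99e-07 to 0.779), and the sign held in all.

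Ctsc (chr7:88278085-88310888, plus strand), the dipeptidyl peptidase that activates granule serine proteases, was lower in leukemic mice by value in both cell groups. It stood at 114, 96.8 and 130 FPKM in N-mDCs, 90.1, 50.5 and 25.1 in T-DCs, and 56.6, 41.6 and 40.2 in T-mDCs. All 6 samples from leukemic mice were below the 3 from healthy mice. Neither difference from N-mDCs passed the threshold, at log2 -1.20 (SE 0.40, limma adjusted p = 0.0737) for T-DCs and -1.29 (SE 0.40, limma adjusted p = 0.155) for T-mDCs. T-DCs and T-mDCs overlapped, with a log2 difference of 0.09 and a 95% interval of -0.83 to 1.01. Ctsz (chr2:174427493-174439039, minus strand), a carboxypeptidase, stood at 395, 563 and 352 FPKM in N-mDCs, 438, 265 and 175 in T-DCs, and 363, 356 and 357 in T-mDCs. Its largest log2 difference was -0.65 (SE 0.33, limma adjusted p = 0.193), in T-DCs against N-mDCs. Nelfcd overlaps Ctsz on the other strand at up to 41.4 FPKM. Whether counting used strand is not given in the sources used here, so some of the Ctsz reads may be those of Nelfcd.

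Ifi30 (chr8:70762774-70766663, minus strand), the only thiol reductase of the set, had the largest called difference. It stood at 644, 602 and 439 FPKM in N-mDCs, 428, 229 and 166 in T-DCs, and 734, 819 and 813 in T-mDCs. The groups did not overlap in any comparison: all T-DC samples were below all N-mDC samples, which were below all T-mDC samples. Ifi30 was lower in T-DCs than in T-mDCs by 3.10-fold on the log2(FPKM + 1) scale (log2 -1.63, SE 0.33, limma adjusted p = 0.0159). Against N-mDCs the log2 difference of -1.12 (SE 0.33) missed the threshold (adjusted p = 0.0521, limma). The call against T-mDCs held in 16 of 23 alternative settings (adjusted p from 1.44e-07 to 0.51). It was lost without T-mDC sample 2, without T-mDC sample 3 and with these close samples averaged into 1. It was also lost without T-DC sample 2, with no filter and with erythroid genes as a covariate. With T-DC sample 1 alone the log2 difference was -0.88. The table lists Ifi30 as a processed transcript, and it was kept under its identifier ENSMUSG00000031838.

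Cst3 (chr2:148871722-148875692, minus strand), the inhibitor, followed Ctsh and Ifi30. It stood at 1962, 2277 and 1272 FPKM in N-mDCs, 1668, 934 and 582 in T-DCs, and 2097, 2594 and 2498 in T-mDCs. T-DCs were below T-mDCs in every sample, with a log2 difference of -1.30 (SE 0.39, limma adjusted p = 0.0566), and overlapped N-mDCs, with -0.88 (SE 0.39, limma adjusted p = 0.142). The genes most like Cst3 over the 9 samples were Gm2a, the GM2 activator of lysosomal lipid breakdown (Pearson r = 0.989), and Gm38832 (r = 0.98). Those most like Ctsh were Limk1 (r = 0.996) and Fgd2 (r = 0.992), those most like Ifi30 were Trim35 (r = 0.991) and Tbc1d10a (r = 0.99), those most like Ctsc were Rgl1 (r = 0.987) and Entpd1 (r = 0.985), and those most like Ctsz were Tbc1d17 (r = 0.992) and Cotl1 (r = 0.991).

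Most markers of both cDC subsets were lower in T-DCs, beside Ctsh, Ifi30 and Cst3. The summed cDC2 level of T-DC sample 1, however, was within the range of N-mDCs and above every T-mDC sample. The summed level of Xcr1, Clec9a, Irf8, Batf3, Cadm1, Tlr3, Wdfy4 and Itgae was 406, 375 and 315 FPKM in N-mDCs, 196, 86.1 and 48.6 in T-DCs, and 421, 627 and 623 in T-mDCs. T-DCs expressed lower levels of 5 of these 8 genes than N-mDCs and of all 8 than T-mDCs (limma). In these comparisons 16.4% and 14.2% of all tested genes were called in either direction. The summed level of the cDC2 list (Sirpa, Itgam, Cd209a, Clec10a, Clec4a4, Esam and Irf4) was 463, 458 and 427 FPKM in N-mDCs, 450, 212 and 120 in T-DCs, and 319, 255 and 248 in T-mDCs. Of these 7 genes T-DCs expressed lower levels of 5 than N-mDCs and lower levels of 4 and a higher level of 1 (Itgam) than T-mDCs (limma). Sirpa, called in neither comparison, held 404 of the 450 FPKM of the cDC2 sum in T-DC sample 1. In these bulk samples fewer cells of a type and less RNA per cell cannot be told apart, and the part of the cDC1 and cDC2 markers in the members' levels was not tested.

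Whether samples of the groups overlapped gives a count that does not depend on the test. In T-DCs against N-mDCs 3 of 10 members did not overlap and were lower (Ctsh, Ctsc and Ifi30), where 16.4% of all tested genes were, and 0 were higher, where 16% of all tested genes were. In T-DCs against T-mDCs 3 of 10 were lower (Ctsh, Ifi30 and Cst3), where 18.1% of all tested genes were, and 0 were higher, where 16.8% of all tested genes were. In T-mDCs against N-mDCs 2 of 10 were lower (Ctss and Ctsc, background 15.7%) and 2 of 10 were higher (Ctsh and Ifi30, background 19.3%). In 7 of the 10 genes the T-DC samples overlapped with the N-mDC samples.

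**Figure D3:**
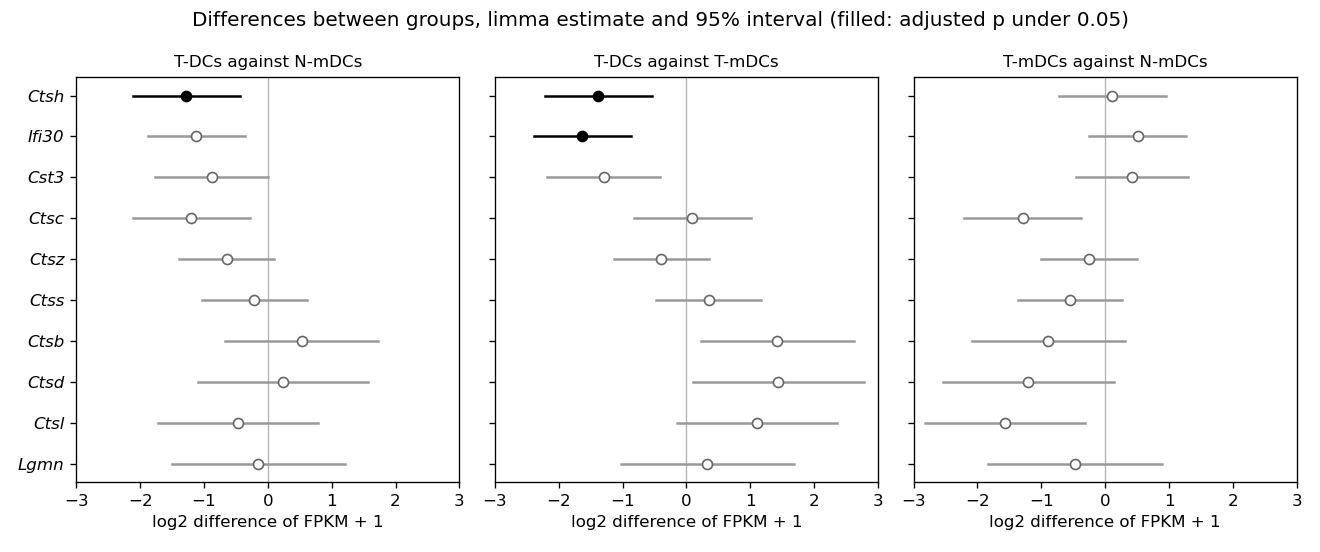
Log2 difference of FPKM + 1 for each of the 10 genes (limma estimate, with lines for the 95% interval) in the 3 comparisons; filled black points passed an adjusted p under 0.05 and open grey points did not. Ctsh is filled in both T-DC panels and Ifi30 in that against T-mDCs, Ctsb and Ctsd lie above 0 against T-mDCs without passing, and no gene is filled between T-mDCs and N-mDCs.

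The T-DC samples ran in the same order for all 10 members. Sample 1 was above sample 2 and sample 2 above sample 3 in 10 of 10 members, an order found in 33.7% of all tested genes. Sample 1 exceeded sample 2 by 1.66- to 2.88-fold and sample 3 by 2.39- to 5.32-fold. The 10 genes summed to 5795 FPKM in T-DC sample 1, 3048 in sample 2 and 1985 in sample 3, against 3870 to 5599 in N-mDCs and 4633 to 4944 in T-mDCs. The members took 1.37% of the reads on genes in T-DC sample 1 and 0.467% in sample 3. Red cell markers ran partly the other way, with a sum over 8 genes of 603 FPKM in T-DC sample 1, 57940 in sample 2 and 41950 in sample 3. Neutrophil markers did too, with a sum over 8 genes of 8.59, 4327 and 1514 FPKM. The part of these other cells in the members' levels was not tested.

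Relative to Ctss of the same library the T-DC samples lay close together for Ctsb, Cst3, Ctsh and Ifi30 and less so for Lgmn and Ctsl. The ratio was chosen after the values were seen. Ctss took 20.4% to 21.4% of the members' summed FPKM in the 3 T-DC samples, Ctsb 17.1% to 17.9% and Cst3 28.8% to 30.7%. The ratio of Ctsb to Ctss was 0.857, 0.798 and 0.867 in T-DC samples 1 to 3, above all N-mDC samples (0.436, 0.642 and 0.453) and all T-mDC samples (0.718, 0.294 and 0.297). Ctsh over Ctss was 0.0807, 0.0757 and 0.0714 in T-DCs, below N-mDCs (0.178, 0.161 and 0.146) and T-mDCs (0.210, 0.279 and 0.284). Ifi30 over Ctss was 0.353, 0.351 and 0.412 in T-DCs, below N-mDCs (0.874, 0.733 and 0.536) and T-mDCs (1.15, 1.65 and 1.66). Lgmn over Ctss spread more, at 0.322, 0.207 and 0.181 in T-DCs, a 1.77-fold range against 1.28-fold in N-mDCs, and Ctsl over Ctss had a 1.54-fold range in T-DCs. The part of red cells and neutrophils in these ratios was not tested.

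Counted over the 9 other members, the ratio to Ctss was lower in T-DCs without overlap for 4 against N-mDCs (Ctsh, Ctsc, Ifi30 and Cst3), where 14.1% of all tested genes were, and higher for 1 (Ctsb), where 8.71% were. Against T-mDCs it was lower for 5 (Ctsh, Ctsc, Ctsz, Ifi30 and Cst3), where 22% of all tested genes were, and higher for 1 (Ctsb), where 4.74% were. In T-mDCs against N-mDCs it was lower for 1 (Ctsc, background 5.28%) and higher for 3 (Ctsh, Ifi30 and Cst3, background 47.1%). Ctss, the denominator, was itself below N-mDCs in every T-mDC sample. An exact permutation test of 3 against 3 samples cannot give a two-sided p under 0.1, and the non-overlapping ratios are given as a description. Ctsd, Ctsl and Lgmn overlapped in all 3 comparisons. The ratio of Ctsd to Ctss was 0.307 to 0.421 in T-DCs, 0.189 to 0.419 in N-mDCs and 0.114 to 0.334 in T-mDCs.

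**Figure D4:**
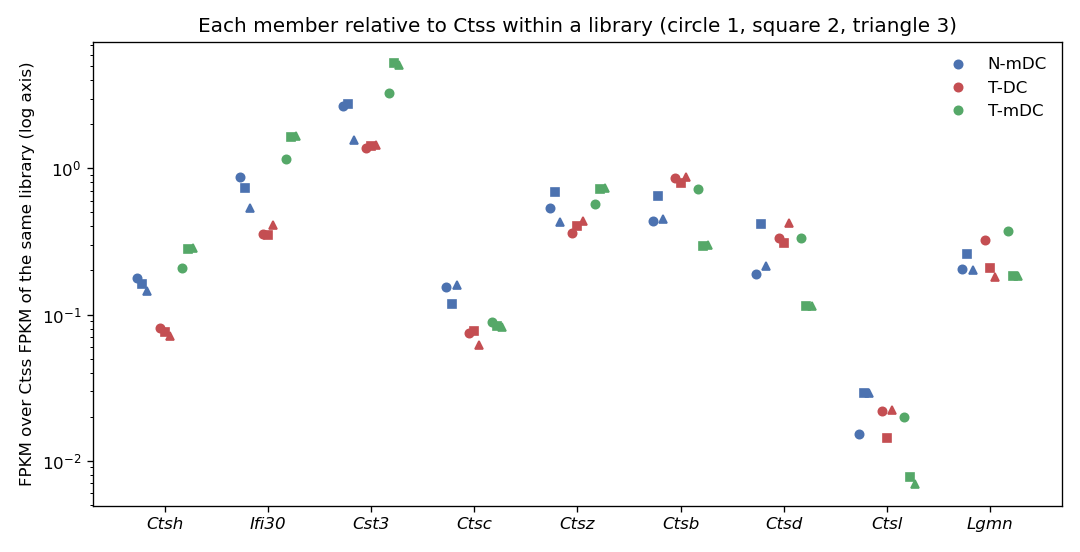
FPKM of each of 9 members divided by the FPKM of Ctss in the same library (vertical log axis) for the 3 samples of each group (circle sample 1, square sample 2, triangle sample 3). The T-DC points of Ctsh, Ifi30 and Cst3 lie below those of both other groups, and the T-DC points of Ctsb, at 0.798 to 0.867, lie above them.

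The genes that receive the peptides had larger median differences than the enzymes that make them. T-DCs expressed lower levels of all 10 genes of a list of MHCII chains and chaperones (H2-Aa, H2-Ab1, H2-Eb1, H2-DMa, H2-DMb1, H2-DMb2, H2-Oa, H2-Ob, Cd74 and Ciita) than N-mDCs, with a median log2 difference of -4.00, and than T-mDCs, with -3.43 (limma). The shares of all tested genes called in either direction were 16.4% and 14.2%. T-DCs were gated on low surface MHCII, and the gate and the mRNA difference cannot be told apart here. Cd74, the invariant chain that cathepsins cut, stood at 11200, 13340 and 8706 FPKM in N-mDCs, 1143, 837 and 326 in T-DCs and 6167, 8216 and 8328 in T-mDCs. T-DCs held 16.1-fold less of it than N-mDCs (adjusted p = 0.00137, limma), beside an unresolved 1.16-fold difference for Ctss. T-mDCs against N-mDCs gave 0 of 10 called by limma for this list, with 2 of 10 at an unadjusted p under 0.05.

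Among 7 other cathepsins, T-DCs expressed more Ctsk and less Ctsw than N-mDCs. Ctsk, the collagen-cutting cathepsin of osteoclasts, stood at 0.0846, 0.288 and 0.255 FPKM in N-mDCs, 7.42, 13.7 and 4.70 in T-DCs, and 4.73, 0.582 and 0.791 in T-mDCs. It was 7.38-fold higher in T-DCs than in N-mDCs (log2 2.88, limma adjusted p = 0.00777) and 3.51-fold higher than in T-mDCs (log2 1.81, limma adjusted p = 0.0459). Because 1 was added to each FPKM, the change against the low N-mDC values is understated. Ctsw, a cathepsin of cytotoxic lymphocytes, stood at 7.27, 18.8 and 20.7 FPKM in N-mDCs, 0.634, 2.62 and 0.428 in T-DCs, and 0.817, 1.76 and 1.24 in T-mDCs, and was lower in both leukemic groups (limma adjusted p = 0.0049 and 0.0224). The summed level of 4 NK cell markers was 41.9 to 129 FPKM for N-mDCs, 1.17 to 24.9 for T-DCs and at most 2.5 for T-mDCs, and their part in the Ctsw level was not tested.

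Ctse and Ctsf were high in T-DC samples 2 and 3 only. Ctse, an aspartic protease of endosomes, stood at 8.96, 437 and 358 FPKM in T-DC samples 1 to 3, and Ctsf, a cysteine cathepsin, at 8.57, 40.0 and 33.9. In the other 6 samples Ctse lay between 2.11 and 7.94 FPKM and Ctsf between 1.32 and 10.5. T-DCs expressed more of both than T-mDCs (adjusted p = 0.0336 and 0.0186, limma). With T-DC sample 1 alone the log2 difference was 1.39 for Ctse and 1.55 for Ctsf, and neither passed (limma adjusted p = 0.142 and 0.186, over a range of alternatives in which 10 and 15 of 23 kept the call). These are the samples with the hemoglobin reads, and the part of red cells was not tested. Ctsa, Ctsg and Ctso were not called in any comparison.

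Of 12 cystatins and serpins, 10 were in the table and 5 were tested. T-DCs expressed lower levels of 2 of the 5 than N-mDCs, where 16.4% of all tested genes were called in either direction. The same 2 were lower than in T-mDCs, where 14.2% of all tested genes were called. Serpinb9, best known as an inhibitor of granzyme B, stood at 56.9, 19.8 and 38.9 FPKM in N-mDCs, 3.72, 5.58 and 2.6 in T-DCs, and 28.1, 36.5 and 38.0 in T-mDCs. T-DCs expressed 7.54-fold less of it than N-mDCs (adjusted p = 0.00225, limma) and 7.24-fold less than T-mDCs (adjusted p = 0.00288, limma). Serpinb6b, a serpin of the same clade, was 4.44-fold lower than in N-mDCs (adjusted p = 0.00777, limma) and 6.26-fold lower than in T-mDCs (adjusted p = 0.0038, limma). T-DCs overlapped neither mature group for these 2 genes. Serpinb6b did not follow the sample order of the members, at 6.91, 10.7 and 8.36 FPKM in T-DC samples 1 to 3.

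Other hydrolases of the lysosome were called at about the rate of all genes. Of 28, T-DCs expressed lower levels of 3 than N-mDCs (Gla, Scpep1 and Dpp7), where 16.4% of all tested genes were called in either direction. They expressed lower levels of 5 than T-mDCs (Ppt1, Gla, Arsb, Scpep1 and Gusb), where 14.2% of all tested genes were called. None was higher (limma), and the median log2 differences were -0.18 and -0.08. Gla, the alpha-galactosidase, stood at 13.6, 15.1 and 24.3 FPKM in N-mDCs, 5.23, 5.32 and 3.51 in T-DCs, and 11.3, 22.0 and 20.6 in T-mDCs. T-DCs expressed 3.22-fold less of it than N-mDCs (adjusted p = 0.00914, limma) and 3.25-fold less than T-mDCs (adjusted p = 0.00966, limma). Ppt1, a thioesterase that removes palmitate from proteins, was 4.34-fold lower in T-DCs than in T-mDCs (adjusted p = 0.0199, limma) and 2.04-fold lower than in N-mDCs without passing. Between T-mDCs and N-mDCs limma called 0 of 28, with 3 at an unadjusted p under 0.05.

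Of the 7 genes that deliver enzymes to lysosomes 1 was called, in T-DCs against N-mDCs, where 16.4% of all tested genes were. Igf2r, the receptor that sorts enzymes carrying mannose 6-phosphate, stood at 2.53, 1.64 and 2.66 FPKM in N-mDCs, 7.14, 5.86 and 5.44 in T-DCs, and 5.31, 2.79 and 2.42 in T-mDCs. It was 2.19-fold higher in T-DCs than in N-mDCs (adjusted p = 0.0214, limma). M6pr of the same list went the other way without being called. All its T-DC samples were below those of N-mDCs (log2 -0.57, limma adjusted p = 0.0804) and T-mDCs (log2 -0.68, limma adjusted p = 0.0513). Of 5 genes for endosomal Toll-like receptors, which cathepsins cut into their signalling form, and their chaperone, T-DCs expressed less Tlr3 and Unc93b1 than N-mDCs (limma adjusted p = 0.038 and 0.0343) and less Tlr3 and Tlr9 than T-mDCs (limma adjusted p = 0.00256 and 0.0236). Tlr3 is also on the cDC1 list. For this list and the granule proteases below, the shares of all tested genes called were 16.4% against N-mDCs and 14.2% against T-mDCs. Tlr7 was not called, at 53.1, 24.6 and 21.8 FPKM in T-DCs, 24.0 to 39.2 in N-mDCs and 19.8, 7.81 and 7.67 in T-mDCs. Every T-DC sample was above every T-mDC sample for Tlr7 (log2 1.44, limma adjusted p = 0.0587). Tlr13, also uncalled, was higher by value in T-DCs than in N-mDCs (log2 1.25, limma adjusted p = 0.0557) and T-mDCs (log2 1.09, limma adjusted p = 0.0906). Of 5 granule proteases that Ctsc activates, T-DCs expressed less Gzma and Gzmb than N-mDCs (limma adjusted p = 0.00878 and 0.0466) and T-mDCs less Gzma than N-mDCs (adjusted p = 0.0167, limma). The other 3 went the other way without being called. Elane, Prtn3 and Ctsg were higher by value in T-DCs than in N-mDCs (log2 2.63, 2.29 and 2.02), through T-DC samples 2 and 3 only. Against T-mDCs all 5 were higher by value and 0 were called. Gzma stood at 23.7, 62.5 and 76.8 FPKM in N-mDCs and at 0.555 to 9.94 in the samples of both leukemic groups, and it is itself on the NK cell list described above.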

How the data were processed

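Bulk RNA-seq of 9 samples was analysed, with 3 in each of the N-mDC, T-DC and T-mDC groups, assigned by the sample labels. Total RNA was extracted from sorted cells with a column kit, and libraries followed standard Illumina protocols. The authors deposited FPKM values for 54532 genes. The submitters' processing notes name the build mm10, and the aligner, counter and counting strand are not given in the sources used here. Multiplying FPKM by gene length returned whole reads (within 0.01 of a read) for 100% of values, and the library sizes used by the authors equalled median-of-ratios scaling.

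The members and gene lists were chosen with earlier results of these data known. Members were matched by gene name, and their positions were the same in GENCODE M21. log2(FPKM + 1) of the 12746 genes that reached an FPKM of 1 in 3 or more samples was fitted with limma 3.58.1 in R 4.3.3, the 3 groups in 1 fit with an empirical Bayes trend, with Benjamini-Hochberg adjustment over all genes and a threshold of 0.05. The paper does not name its test for these samples. The fit was tested on simulated data with known changes. Figures were drawn with matplotlib 3.10.9 in Python 3.11.15. Of the other lists the text names called genes, up to 6 per list by size of change, besides genes named for context after their values were seen (Cd74, Tfeb, Tlr7, Tlr13, M6pr, Elane, Prtn3 and the uncalled cathepsins). For each member the 2 tested genes with the highest Pearson r over the 9 samples are named. Motif windows came from RefSeq. Depth was 15360815 to 18440913 reads on genes per library, and counting error covers only part of the spread between samples. Alternatives were another pseudocount, filters, scalings, tests and covariates, and leaving out each sample. The reads and the single-cell data of the study were not analysed here.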

Additional observations from a re-analysis of the deposited data

How the results depend on the processing

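The 30 member differences (10 genes in 3 comparisons) were recomputed under 23 alternative settings, which gave 690 values. Of these 620 stayed on their side of the threshold, 36 lost a call, 34 gained a call and 0 reversed a called direction, while 22 uncalled values changed sign, among them 4 for Ctss and 3 for Lgmn in T-DCs against N-mDCs and 4 for Ctsc in T-DCs against T-mDCs. The counts of called members and genes moved more. In T-DCs against N-mDCs the members called were 0 with no filter, with TPM, with only the groups compared (1070 genes), with the replicate block (1378 genes), with T-mDC samples 2 and 3 averaged into 1 (1394 genes), with erythroid genes as a covariate (604 genes) and, chosen after seeing the data, without T-DC samples 2 and 3 (746 genes). They were 2 with a filter of FPKM 5, with no variance trend and with voom on the recovered reads, and 5 with array weights (8485 genes), beside 1 member and 2096 genes in the fit reported. In T-DCs against T-mDCs they were 0 with no filter, with T-mDC samples 2 and 3 as 1 (540 genes) and with the erythroid covariate (0 genes), 1 with only the groups compared (1036 genes), with the replicate block and without T-DC samples 2 and 3 (741 genes), and 10 with array weights (9923 genes), while the filter of FPKM 5 called 1190 genes, beside 2 members and 1813 genes. The member called without T-DC samples 2 and 3 was Ctss. In T-mDCs against N-mDCs the genes called were 107 with a pseudocount of 0.1, 111 with the filter of FPKM 5, 99 with TPM, 78 with the replicate block, 173 with voom, 23 with T-mDC samples 2 and 3 as 1, 850 (1 member) with only the groups compared, 849 (1 member) without T-DC samples 2 and 3 and 3841 (6 members) with array weights, beside 282 genes and 0 members. The causes were not tested.

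Leaving out each sample in turn gave 0 to 5 members and 980 to 5030 genes in T-DCs against N-mDCs, 0 to 3 members and 541 to 4475 genes in T-DCs against T-mDCs, and 0 to 1 members and 23 to 1022 genes in T-mDCs against N-mDCs. The highest counts came without T-DC sample 1, when Ctsh, Ifi30, Cst3, Ctsc and Ctsz were called against N-mDCs. Where a group was left with 1 sample, that sample is assumed to vary like the other groups. TPM moved the median log2 difference of all genes by -0.296 in T-DCs against T-mDCs and by 0.207 in T-mDCs against N-mDCs, and voom by -0.146 and 0.102. The share of called genes that were higher was 38.2% in T-DCs against T-mDCs, 21.9% with TPM and 24.8% with voom, and in T-mDCs against N-mDCs 31.2% against 49.5% with TPM. Same-numbered samples did not deviate together (r of -0.475 to 0.269). With 3 samples per group this cannot decide whether equal numbers share a mouse or a sort, and the labels do not say. The replicate block kept the call of Ifi30 against T-mDCs and lost both calls of Ctsh. Of the other genes named, calls held in fewer than 11 of the alternatives for Dpp7, Gzmb, Tlr3, Unc93b1 and Scpep1 in T-DCs against N-mDCs and for Ctsk, Gusb and Ctse in T-DCs against T-mDCs.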
